A study of Mus musculus with 16 samples.

Results

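Collagens and the genes that lay down, cut and cross-link them were followed in the RNA of cell bodies and axons of embryonic mouse motoneurons that carried or lacked hnRNP R. The group was defined by gene symbol alone, and it was chosen with earlier results of these data known. It held every protein-coding gene of the deposited count table whose symbol was that of a collagen chain, a matrix metalloproteinase (Mmp), a tissue inhibitor of metalloproteinases (Timp), an Adamts protease, a lysyl oxidase, a fibulin, fibronectin (Fn1) or Sparc. These were 101 of 46320 genes, 44 of them collagen chains. Of the 101, 99 had at least 1 read in some library and 91 passed the filter on low counts, together with 19964 genes in all.

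The study grew lumbar spinal motoneurons of embryonic day 13 mice in microfluidic chambers, in which axons pass through narrow channels into a separate compartment. Libraries were made from the somatodendritic side (cell bodies and dendrites) and from the axonal side. Cells came from wild-type embryos (+/+) or from embryos homozygous for a CRISPR/Cas9 deletion of exons 1 to 5 of Hnrnpr (Hnrnpr-/-), which encodes an RNA-binding protein known for its part in the axonal transport of mRNAs. Each of the 4 groups had 4 libraries, defined by genotype and compartment. The cells had been enriched by panning on the neurotrophin receptor p75NTR, and all grew on poly-L-lysine and laminin-111 with 5 ng/ml CNTF on both sides and 20 ng/ml BDNF on the axonal side only. The study describes the libraries of a group as biological replicates, and the labels give no culture or animal for each.

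The extracellular matrix is the protein mesh around cells. Fibrillar collagens form its cables, collagen IV forms the sheet of the basement membrane together with laminin, and fibulins, fibronectin and Sparc tie these to each other and to cells. Metalloproteinases and Adamts proteases cut matrix proteins, Timps inhibit the metalloproteinases, and lysyl oxidases cross-link collagen and elastin. In the spinal cord and nerve, fibroblasts, pericytes, endothelial cells and Schwann cells are the best known makers of collagens, while neurons are known for some transmembrane collagens and membrane-bound metalloproteinases.

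Hnrnpr itself followed the labels, with 203.6 ± 27.1 CPM (SD, n = 4; CPM are counts scaled to a common library size) in +/+ somatodendritic and 212 ± 141 in +/+ axonal libraries against 0.861 ± 0.305 and 0.876 ± 0.222 CPM in the Hnrnpr-/- ones. Library totals lay between 22024636 and 34863923 counts, so that 3 counts, taken here as the floor of detection, corresponded to 0.0811 to 0.141 CPM. Of the motoneuron markers, in +/+ and Hnrnpr-/- somatodendritic libraries, Slc18a3 was at 8.05 ± 3.21 and 6.56 ± 1.98 CPM, Isl1 at 5.09 ± 1.98 and 4.77 ± 0.603 and Chat at 0.899 ± 0.291 and 1.07 ± 0.224, while Mnx1 was at 0 in all of them. Replicate 2 of the +/+ axonal group stood apart, with 1.88% of its counts on mitochondrial genes against 0.0308% to 0.407% in all other libraries and with counts for 80 of the 101 matrix genes against 88 to 97. In RNA from whole compartments, fewer cells of a type and less RNA per cell cannot be told apart. Library preparation also differed with compartment. By the study's methods, axonal libraries took a larger reaction volume and more PCR cycles, and their scarce RNA was used without the check made on somatodendritic RNA. A part of this preparation in differences between compartments cannot be told apart from the compartment.

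Matrix genes took a larger part of the axonal than of the somatodendritic libraries. In +/+ motoneurons their share was 0.288%, 0.212%, 0.321% and 0.271% of the somatodendritic libraries 1 to 4 and 0.905%, 0.438%, 1.33% and 1.87% of the axonal ones. In Hnrnpr-/- motoneurons it was 0.221%, 0.226%, 0.437% and 0.50% against 1.00%, 0.599%, 1.20% and 1.51%. No axonal share lay below a somatodendritic share of its genotype. The means were 0.273% ± 0.0455 and 0.346% ± 0.144 in the somatodendritic groups and 1.14% ± 0.609 and 1.08% ± 0.381 in the axonal groups (SD, n = 4), in the order +/+ and Hnrnpr-/-. Collagen chains alone made up 0.0805% ± 0.0292 of the +/+ somatodendritic and 0.377% ± 0.262 of the +/+ axonal libraries, and 0.140% ± 0.109 and 0.353% ± 0.181 in Hnrnpr-/-.

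**Figure D1:**
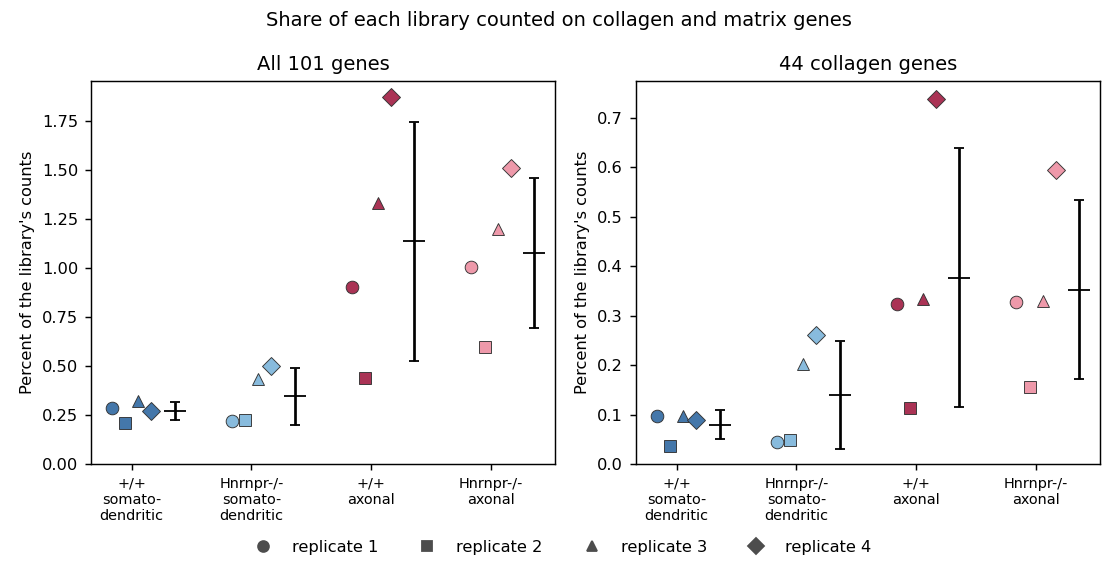
Share of all counts of a library that fell on the 101 matrix genes, in percent, for each of the 16 libraries grouped by compartment and genotype, with the mean and SD of each group. The somatodendritic libraries lie between 0.212% and 0.50% and the axonal ones between 0.438% and 1.87%.

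The make-up of this share also differed. Timp2, a metalloproteinase inhibitor, led the somatodendritic libraries with 23.0% of all matrix gene counts in +/+ and 18.3% in Hnrnpr-/-. Sparc, a secreted collagen-binding glycoprotein, led the axonal libraries with 29.0% and 29.4%. Per kilobase of exon, a scale on which levels of different genes can be compared, the leading +/+ somatodendritic genes were Timp2 with 186 CPM per kb, Mmp24 with 83.2 and Sparc with 61.1. The leading +/+ axonal genes were Sparc with 1199 CPM per kb, Timp2 with 251, Fn1 with 123, Mmp2 with 119, Col4a1 with 84.5 and Col4a2 with 69.4. Without Sparc, the other matrix genes still took 0.258% ± 0.0397 of +/+ somatodendritic and 0.806% ± 0.496 of +/+ axonal libraries.

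The first comparison asked which matrix genes were higher or lower in axons than in cell bodies. Below, every log2 fold change is axonal relative to somatodendritic, so that a positive value is higher in axons, with its standard error (SE) and the p-value of edgeR's quasi-likelihood test adjusted by Benjamini-Hochberg over the 19964 genes. In +/+ motoneurons 43 of the 91 genes (47.3%) were higher in axons at an adjusted p under 0.05, where 30.1% of all genes tested were. Another 15 (16.5%) were lower, where 27.4% of all genes were. Their median log2 fold change was 1.31 against 0.07 over all genes. In Hnrnpr-/- motoneurons 30 (33.0%) were higher against 27.5% of all genes, 13 (14.3%) were lower against 26.8%, and the median was 1.03 against -0.00. In both genotypes the share of lower genes was below that of all genes. The share of higher genes was above that of all genes in +/+ and close to it in Hnrnpr-/-. With the replicate number as a block within genotype, 42 genes were higher in +/+ and 36 in Hnrnpr-/-.

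Counted without a model, every +/+ axonal library lay above every somatodendritic library for 26 of the 91 genes (28.6%, against 24.8% of all genes) and below for 16 (17.6%, against 27.6%). In Hnrnpr-/- these counts were 24 (26.4%, against 24.1%) and 14 (15.4%, against 27.3%). By this count the genes above were close to the background in both genotypes. All 15 genes called lower in +/+ were lower in every axonal library than in any somatodendritic library, as were 92.7% of all genes called lower. Of the 43 called higher, 25 (58.1%) were higher in every one, against 79.7% of all genes called higher. Of these 43, 26 had their highest +/+ axonal level in replicate 4 (20.1% of all genes called higher did) and 12 in replicate 3 (51.9%), and 34 had their lowest in replicate 2 (35.8%). Without replicate 2 of the +/+ axonal group 45 matrix genes were higher.

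**Figure D2:**
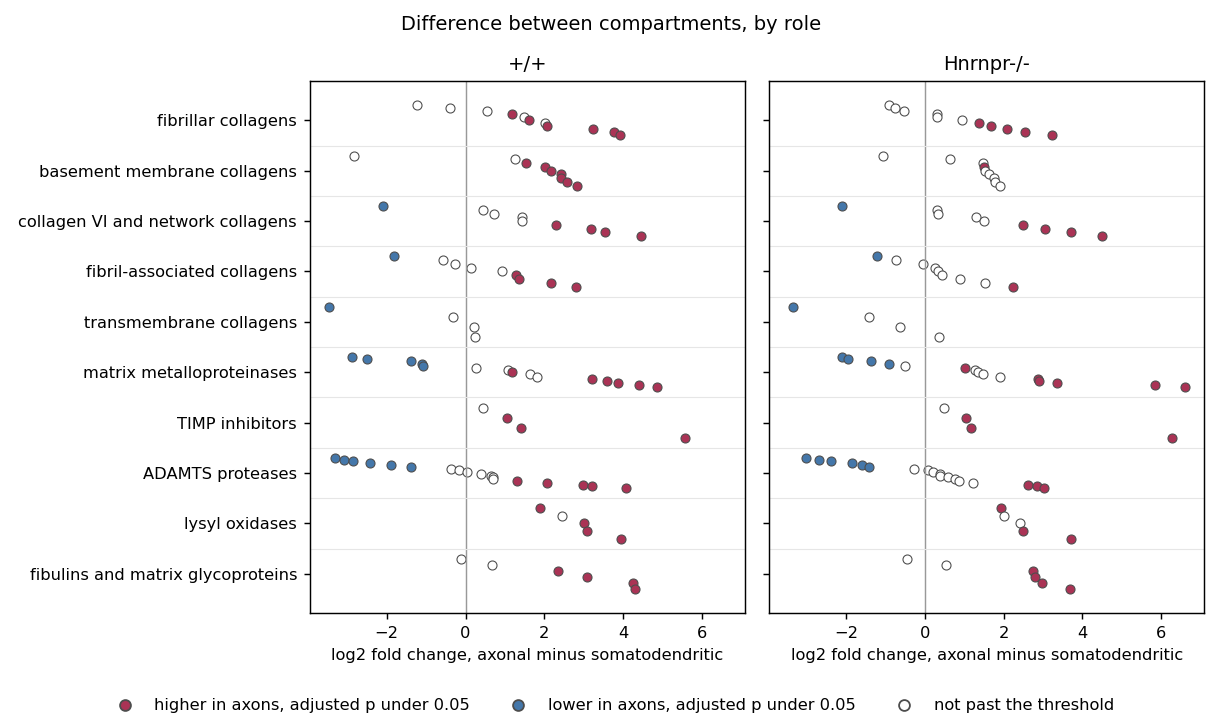
Log2 fold change in axons relative to cell bodies (x axis) for 90 tested matrix genes, each point a gene, in rows by role. The left panel shows +/+ and the right panel Hnrnpr-/- motoneurons. Colours mark genes higher and genes lower in axons at an adjusted p under 0.05, and open points did not pass. Most points lie to the right of 0 in both panels. Col6a5, at 0 counts in all +/+ axonal libraries, is left out.

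Between genotypes, 29 genes passed as higher in axons in both and 13 as lower in both. Another 14 passed as higher in +/+ and not in Hnrnpr-/- (Col4a1, Col4a2, Col4a3, Col4a6, Col6a1, Col7a1, Col9a3, Col16a1, Col18a1, Col22a1, Col27a1, Adamts7, Adamts12 and Lox), while for Col6a4 it was the other way round. Mmp15 and Col6a5 passed as lower in +/+ and not in Hnrnpr-/-, where Col6a5 was at the threshold (edgeR adjusted p = 0.0502) and passed under 8 of 26 alternatives, DESeq2 and limma voom among them. With the replicate number as a block within genotype, Col4a1, Col4a2, Col18a1 and Lox passed as higher in Hnrnpr-/- as well. The difference of the axonal enrichment between genotypes was tested directly and passed for no matrix gene. A gene that passed in a single genotype is thus not shown to differ.

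The sequences upstream of a few of these genes are shown to let the promoters of genes at both ends of the range be read side by side. They are stretches before the transcription start in the RefSeq promoter table of GRCm38.p6, which held 73 of the 101 genes, placed by exact match on GRCm39 and cut where needed so as to end before the first exon annotated by GENCODE. Capitals mark CCAAT (the box bound by NF-Y), GGGCGG (the GC box bound by Sp1), TATAAA (the TATA box) and TGANTCA (the site bound by AP-1), each searched on both strands. The first lines are from Timp1, Col8a1 and Fbln5, which were among the 5 largest increases in +/+ axons of matrix genes averaging 5 CPM or more in +/+.
Timp1, chrX:20736166-20736315, plus strand: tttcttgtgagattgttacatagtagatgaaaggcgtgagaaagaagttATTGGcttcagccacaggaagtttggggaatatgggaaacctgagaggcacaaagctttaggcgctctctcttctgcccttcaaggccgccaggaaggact
Col8a1, chr16:57575101-57575250, minus strand: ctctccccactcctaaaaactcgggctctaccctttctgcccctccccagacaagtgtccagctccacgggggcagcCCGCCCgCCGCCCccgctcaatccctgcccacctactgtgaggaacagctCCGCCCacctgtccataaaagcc
Fbln5, chr12:101785430-101785579, minus strand: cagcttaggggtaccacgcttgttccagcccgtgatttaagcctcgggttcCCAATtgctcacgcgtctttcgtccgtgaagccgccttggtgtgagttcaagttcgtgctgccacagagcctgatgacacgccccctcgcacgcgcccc
The next lines are from Col25a1, Adamts17 and Mmp24, which were among the 5 largest decreases under the same limit.
Col25a1, chr3:129974344-129974493, plus strand: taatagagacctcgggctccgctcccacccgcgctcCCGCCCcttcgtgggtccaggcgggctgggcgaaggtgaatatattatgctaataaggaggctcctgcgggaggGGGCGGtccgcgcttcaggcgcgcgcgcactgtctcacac
Adamts17, chr7:66489289-66489438, plus strand: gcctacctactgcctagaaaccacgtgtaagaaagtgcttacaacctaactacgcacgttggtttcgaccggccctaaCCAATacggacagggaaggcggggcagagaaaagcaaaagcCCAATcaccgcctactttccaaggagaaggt
Mmp24, chr2:155617012-155617097, plus strand: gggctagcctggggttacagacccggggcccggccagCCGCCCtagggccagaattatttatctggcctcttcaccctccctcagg
The last lines are from Mmp13 and Mmp10, both in the metalloproteinase cluster of chromosome 9, which were chosen after their values were seen.
Mmp13, chr9:7272364-7272513, plus strand: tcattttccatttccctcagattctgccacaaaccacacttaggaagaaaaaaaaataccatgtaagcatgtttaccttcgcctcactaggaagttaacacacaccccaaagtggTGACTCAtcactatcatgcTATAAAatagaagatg
Mmp10, chr9:7502193-7502342, plus strand: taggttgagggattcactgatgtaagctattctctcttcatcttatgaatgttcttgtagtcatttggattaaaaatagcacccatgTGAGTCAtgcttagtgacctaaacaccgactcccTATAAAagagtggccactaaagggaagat
The table starts of Fbln5, Col25a1 and Adamts17 lay 163, 502 and 2096 bases inside the genes as deposited, so their stretches lie partly or wholly within these genes.

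In the 150 bases before the table start, GGGCGG was found in 37 of the 73 matrix genes (50.7%) against 38.3% of all 17492 protein-coding genes of the table. It was in 19 of 28 genes higher in +/+ axons, in 7 of 9 lower ones and in 10 of 26 that passed neither way, so that genes of both directions held it. CCAAT was in 13 (17.8%, against 27.5%) and TATAAA in 13 (17.8%, against 7.86%). TGANTCA was in 8 (11.0%, against 3.77%), of which 7 were metalloproteinases of the chromosome 9 cluster (Mmp13, Mmp1b, Mmp3, Mmp1a, Mmp10, Mmp20 and Mmp7) and the other was Col6a1. The same 7 metalloproteinases also held TATAAA. Of the 8, Mmp13, Mmp10 and Col6a1 were higher in +/+ axons and the other 5 had too few counts to be tested.

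The counts of calls in each class that follow are to be set against the shares over all genes, 30.1% higher and 27.4% lower in +/+ and 27.5% and 26.8% in Hnrnpr-/-. Of 11 fibrillar collagens tested, 6 were higher and none lower in +/+ (Col5a1, Col5a2, Col5a3, Col11a1, Col27a1 and Col2a1), and 5 were higher in Hnrnpr-/-, with median log2 fold changes of 1.6 and 0.94. Those that rose were chains of the minor collagens V, XI and XXVII and of cartilage collagen II. Collagens I and III, the bulk of most fibrils, did not pass in the main edgeR fit. Of these, Col1a2 passed in +/+ under 6 of 28 alternatives.

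Col5a2 (chr1:45413491-45542442, minus strand) encodes a chain of collagen V, which nucleates collagen I fibrils. Its levels in the +/+ somatodendritic libraries 1 to 4 were 14.7, 9.23, 32.8 and 17.8 CPM and in the +/+ axonal libraries 161, 37.3, 348 and 464 CPM. In Hnrnpr-/- they were 10.5, 9.83, 39.0 and 32.3 against 236, 101, 292 and 234 CPM. The groups did not overlap in either genotype, and in +/+ axons replicate 2 was the lowest. The log2 fold change was 3.76 (SE 0.71, edgeR adjusted p = 0.000559) in +/+ and 3.23 (SE 0.69, edgeR adjusted p = 0.00148) in Hnrnpr-/-. Col3a1 (chr1:45350698-45388866, plus strand), the chain of collagen III found in soft tissues, had the highest level per kb of the class in all groups but the Hnrnpr-/- axons, where Col1a2 was above it. It was at 232, 27.8, 198 and 219 CPM in +/+ somatodendritic and 219, 33.4, 84.0 and 651 in +/+ axonal libraries, and at 50.3, 58.5, 564 and 629.8 and 189, 37.9, 146 and 531 in Hnrnpr-/-. Replicate 2 was low on both sides in +/+, and the groups overlapped widely. Its log2 fold change was 0.54 (SE 1.00, edgeR adjusted p = 0.663) in +/+ and -0.53 (SE 1.00, edgeR adjusted p = 0.678) in Hnrnpr-/-. The +/+ value turned to -0.54 without replicate 4 of the +/+ axons, and the Hnrnpr-/- value was -1.39 without axonal replicate 4 and close to 0 without cell body replicate 4.

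Col1a2 (chr6:4505618-4541543, plus strand), a chain of collagen I, fell between these. The +/+ libraries held 70.9, 11.6, 56.6 and 69.3 CPM on the somatodendritic and 233, 26.7, 136 and 454 on the axonal side, and the Hnrnpr-/- libraries 14.0, 33.0, 248 and 256 and 214, 66, 230.1 and 545. Within each replicate number the +/+ axonal library was higher than its somatodendritic partner, although the groups overlapped. The log2 fold change of 2.03 (SE 0.95, edgeR adjusted p = 0.0796) in +/+ did not pass, but with the replicate number as a block within genotype it was 1.72 (edgeR adjusted p = 0.0213), and without replicate 2 of the +/+ axons it was 2.39 (edgeR adjusted p = 0.0374). The +/+ call was also made by DESeq2, with the replicate block over all groups and in a fit of the compared groups alone. In Hnrnpr-/- the log2 fold change was 0.94 (SE 0.92, edgeR adjusted p = 0.407). Its partner Col1a1 was at 0.935 times the level of Col1a2 per kb in +/+ somatodendritic libraries and at 0.657 times in +/+ axons (0.799 and 0.520 in Hnrnpr-/-), with a range of 0.361 to 0.965 over the +/+ axonal libraries. Col2a1 (chr15:97873483-97902722, minus strand), the main collagen of cartilage, was at 12.4, 6.57, 18.0 and 4.69 CPM in +/+ cell bodies and 45.4, 25.1, 418 and 142 in +/+ axons, where replicate 3 was far above the rest. In Hnrnpr-/- the values were 12.5, 14.0, 20.9 and 16.2 and 62.0, 67.7, 49.3 and 25.2 CPM, and the groups did not overlap in either genotype. The gene had a log2 fold change of 3.92 (SE 0.74, edgeR adjusted p = 0.000562) in +/+ and 1.68 (SE 0.68, edgeR adjusted p = 0.0471) in Hnrnpr-/-. Without replicate 3 of the +/+ axons the +/+ value was 2.82 (edgeR adjusted p = 0.00128), and the Hnrnpr-/- call was lost without any Hnrnpr-/- cell body library, without replicate 1, 2 or 3 of the Hnrnpr-/- axons or without replicate 1 of the +/+ cell bodies, at adjusted p-values of up to 0.0985.

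Most basement membrane collagens were higher in +/+ axons. Of 9 tested, 7 were higher, where 30.1% of all genes were (Col4a1, Col4a2, Col4a3, Col4a5, Col4a6, Col7a1 and Col18a1) and none lower, against 1 higher in Hnrnpr-/- (Col4a5), with medians of 2.17 and 1.52. These counts are from the main edgeR fit. By DESeq2 and with either replicate block, Col4a1, Col4a2 and Col18a1 also passed as higher in Hnrnpr-/- axons. No gene of the class passed the test of the difference between genotypes.

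Col4a1 (chr8:11248423-11362889, minus strand) and Col4a2 (chr8:11362805-11499287, plus strand) encode the chains of the collagen IV trimer found in all basement membranes, and the genes lie head to head with 85 shared bases. Col4a1 was at 118, 32.7, 116 and 126 CPM in +/+ cell bodies and 560.0, 109.8, 272 and 1836 in +/+ axons. In Hnrnpr-/- it was at 62.7, 32.5, 219 and 315 and 804, 136, 309 and 1120.4 CPM. Replicate 4 gave the highest and replicate 2 the lowest axonal level in both genotypes, and the compartments overlapped. This gave a log2 fold change of 2.82 (SE 0.91, edgeR adjusted p = 0.0156) in +/+ and 1.91 (SE 0.88, edgeR adjusted p = 0.0773) in Hnrnpr-/-. Without replicate 4 of the +/+ axons the +/+ value was 1.73 (edgeR adjusted p = 0.0828). With the replicate block within genotype the Hnrnpr-/- value was 2.01 (edgeR adjusted p = 0.0109), and leaving out replicate 4 of the Hnrnpr-/- cell bodies, replicate 4 of the +/+ axons or replicate 2 of the Hnrnpr-/- axons also brought it past the threshold.

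Col4a2 followed the same order of libraries in all groups but the +/+ cell bodies. It was at 101, 49.3, 94.2 and 86.8 and 424, 75.2, 228 and 1063 CPM in +/+ and 61.5, 34.4, 165 and 214 and 597, 85.8, 229.9 and 702 in Hnrnpr-/-. Its log2 fold change was 2.43 (SE 0.78, edgeR adjusted p = 0.0155) in +/+ and 1.76 (SE 0.76, edgeR adjusted p = 0.0627) in Hnrnpr-/-. Without replicate 4 of the +/+ axons the former was 1.6 (edgeR adjusted p = 0.0721), and with the replicate block within genotype the latter was 1.68 (edgeR adjusted p = 0.0230). Leaving out replicate 4 of the Hnrnpr-/- cell bodies or replicate 2 of the Hnrnpr-/- axons, or replicate 2 or 4 of the +/+ axons, also brought the Hnrnpr-/- call. The pair kept close to equal levels per kb, with a Col4a1 to Col4a2 ratio of 0.926 and 1.04 in the somatodendritic and 1.22 and 1.15 in the axonal groups of +/+ and Hnrnpr-/-. Over single libraries this ratio lay between 0.520 and 1.35. Col18a1 (chr10:76888013-77002391, minus strand), whose end fragment is endostatin, was at 40.3, 10.7, 48.3 and 52.4 CPM in +/+ cell bodies and 216, 115, 197 and 378 in +/+ axons, without overlap. The Hnrnpr-/- values were 14.1, 15.3, 124 and 163 and 116, 80.5, 291 and 496 CPM, where the cell body replicates 3 and 4 overlapped the axons. On the log2 scale the change was 2.58 (SE 0.81, edgeR adjusted p = 0.0137) in +/+. It was 1.63 (SE 0.78, edgeR adjusted p = 0.0895) in Hnrnpr-/-, 2.06 (edgeR adjusted p = 0.000908) with the replicate block and 2.25 (edgeR adjusted p = 0.0415) without replicate 4 of the Hnrnpr-/- cell bodies.

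Collagen VI and the short-chain network collagens, with collagens XXVI and XXVIII counted in the same class, had calls in both directions. Their numbers were not far from the background. Of 10 tested in +/+, 4 were higher in axons (Col8a1, Col8a2, Col10a1 and Col6a1) and 2 lower (Col26a1 and Col6a5), where 30.1% and 27.4% of all genes were, and in Hnrnpr-/- the counts were 4 and 1. Col8a1 (chr16:57444619-57575100, minus strand) and Col8a2 (chr4:126180587-126208123, plus strand) encode the chains of collagen VIII, a lattice collagen of vessel walls and of the cornea. Col8a1 was at 8.15, 3.51, 41.0 and 10.5 CPM in +/+ cell bodies and 203, 191, 469.8 and 513 in +/+ axons, and at 5.10, 5.20, 33.9 and 11.0 and 197, 157, 616 and 286 in Hnrnpr-/-. The lowest axonal library was well above the highest cell body library in both genotypes. edgeR estimated a log2 fold change of 4.45 (SE 0.84, edgeR adjusted p = 0.000577) in +/+ and 4.51 (SE 0.85, edgeR adjusted p = 0.000629) in Hnrnpr-/-. Replicate 3 was the highest cell body library in both genotypes, and without it the values were 5.58 (edgeR adjusted p = 0.000300) and 5.45 (edgeR adjusted p = 0.000563).

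Col8a2 was at 5.55, 2.52, 23.6 and 1.88 CPM in +/+ cell bodies and 59.6, 63.3, 99.0 and 82.9 in +/+ axons, and at 2.76, 10.3, 30.2 and 10.4 and 98.7, 149, 136 and 59.7 in Hnrnpr-/-. These too did not overlap, and replicate 3 was again the highest cell body library of each genotype. The gene had a log2 fold change of 3.18 (SE 0.77, edgeR adjusted p = 0.00283) in +/+ and 3.05 (SE 0.76, edgeR adjusted p = 0.00391) in Hnrnpr-/-, or 4.55 (edgeR adjusted p = 0.000313) and 3.82 (edgeR adjusted p = 0.00236) without that library. Per kb, Col8a1 was 1.61 times Col8a2 in +/+ cell bodies and 3.94 times in +/+ axons (0.906 and 2.47 in Hnrnpr-/-). This ratio varied between 2.65 and 5.43 over the +/+ axonal libraries, and between 1.22 and 4.89 over the +/+ cell body libraries, so its ranges overlapped.

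Col6a1 (chr10:76544626-76561878, minus strand), a chain of the beaded collagen VI filaments, was at 22.4, 8.10, 18.3 and 25.0 CPM in +/+ cell bodies and 99.3, 7.25, 57.5 and 197 in +/+ axons. In Hnrnpr-/- it was at 13.8, 12.5, 55.5 and 63.9 and 109, 16.3, 69.7 and 165 CPM. The +/+ axonal replicate 2 was below all +/+ cell body libraries, so the groups overlapped. Expressed as log2 fold change, the difference was 2.29 (SE 0.84, edgeR adjusted p = 0.0305) in +/+ and 1.31 (SE 0.82, edgeR adjusted p = 0.190) in Hnrnpr-/-. The +/+ call was lost without any one of 5 libraries, most of all without replicate 4 of the +/+ axons, where it was 1.62 (edgeR adjusted p = 0.11). The other 4 were replicate 1 of the +/+ axons and replicates 1, 2 and 3 of the +/+ cell bodies. Col26a1 (chr5:136770613-136912230, minus strand), the chain of collagen XXVI, went the other way and steadily so. It was at 31.3, 27.5, 31.7 and 21 CPM in +/+ cell bodies and 6.03, 4.35, 3.80 and 11.9 in +/+ axons, and at 35.2, 34.1, 36.9 and 37.3 and 6.54, 10.2, 6.21 and 10.2 in Hnrnpr-/-. Its log2 fold change was -2.09 (SE 0.32, edgeR adjusted p = 0.000122) in +/+ and -2.11 (SE 0.31, edgeR adjusted p = 0.000144) in Hnrnpr-/-, with no overlap. Col6a5 (chr9:105733269-105839743, minus strand) was found on the cell body side only in +/+, with 61 counts over the 4 somatodendritic libraries and 0 in each of the 4 axonal ones. Hnrnpr-/- cell bodies had 50 counts and Hnrnpr-/- axons 13. A count of 0 allowed up to 3 counts per library, a mean of 0.0931 CPM in +/+ axons, against a measured 0.655 ± 0.369 CPM in +/+ cell bodies.

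Fibril-associated collagens, which sit on the surface of fibrils, had 4 higher (Col9a3, Col12a1, Col16a1 and Col22a1) and 1 lower (Col19a1) of 9 tested in +/+, where 30.1% and 27.4% of all genes were. In Hnrnpr-/- 1 was higher and 1 lower, where 27.5% and 26.8% were. Col12a1 (chr9:79506269-79628423, minus strand), found in dense connective tissue, was the steadiest of them. It was at 14.8, 7.83, 20.6 and 7.18 CPM in +/+ cell bodies and 64.7, 42.7, 139.8 and 109 in +/+ axons, and at 12.1, 13.6, 22.7 and 19.0 and 79.2, 66.6, 99.4 and 71.0 in Hnrnpr-/-. Its lowest axonal library was above its highest cell body library in both genotypes, and the log2 fold change was 2.82 (SE 0.40, edgeR adjusted p = 8.69e-05) in +/+ and 2.23 (SE 0.39, edgeR adjusted p = 0.000408) in Hnrnpr-/-. Col9a3 (chr2:180239895-180263985, plus strand), a cartilage collagen, was at 26.0, 30.4, 22.5 and 18.6 CPM in +/+ cell bodies and 72.0, 94.8, 26.4 and 42.6 in +/+ axons, and at 19.1, 36.4, 23.1 and 55.6 and 20.0, 69.1, 19.9 and 72.8 in Hnrnpr-/-. Here replicates 1 and 2 were the high +/+ axonal libraries, where most genes that rose peaked in 3 or 4. The fitted log2 fold change was 1.27 (SE 0.49, edgeR adjusted p = 0.0371) in +/+ and 0.44 (SE 0.48, edgeR adjusted p = 0.462) in Hnrnpr-/-, and the +/+ call was lost without any of replicates 1, 3 and 4 of the +/+ cell bodies or 1 and 2 of the +/+ axons, at 0.94 (edgeR adjusted p = 0.120) for the last of these. Col16a1 (chr4:129941633-129993070, plus strand) passed only just. It was at 15.8, 10.9, 11.7 and 11.2 CPM in +/+ cell bodies and 28.2, 7.30, 37.9 and 53.7 in +/+ axons, and at 10.2, 13.3, 21.6 and 42.0 and 20.9, 30.7, 29.3 and 80.0 in Hnrnpr-/-, with overlap in both. The log2 fold change was 1.36 (SE 0.56, edgeR adjusted p = 0.0485) in +/+ and 0.88 (SE 0.55, edgeR adjusted p = 0.187) in Hnrnpr-/-, and the former was lost without any +/+ cell body library, without replicate 1, 3 or 4 of the +/+ axons, without replicate 3 of the Hnrnpr-/- cell bodies or replicate 2 of the Hnrnpr-/- axons, at adjusted p-values of 0.0566 to 0.138.

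Transmembrane collagens are made by neurons and muscle among others. Of 4 tested, none was higher and Col25a1 was lower in both genotypes, counts too small to be set apart from the 30.1% and 27.4% over all +/+ genes. Col25a1 (chr3:129973992-130393533, plus strand) is known to be needed for motoneurons to innervate muscle. It was at 27.5, 29.3, 27.0 and 25.0 CPM in +/+ cell bodies and only 1.67, 5.81, 0.422 and 1.96 in +/+ axons. The Hnrnpr-/- values were 32.3, 20.5, 19.6 and 18.9 and 5.70, 2.21, 0.330 and 0.729 CPM. The groups were far apart in both genotypes, and the axonal residue was largest in replicate 2 of +/+ and replicate 1 of Hnrnpr-/-. This gave a log2 fold change of -3.45 (SE 0.76, edgeR adjusted p = 0.00162) in +/+ and -3.34 (SE 0.76, edgeR adjusted p = 0.00221) in Hnrnpr-/-, or -4.33 (edgeR adjusted p = 0.000624) and -4.39 (edgeR adjusted p = 0.000333) without these libraries. Col23a1 (chr11:51180508-51474752, plus strand) was at 36.6, 21.3, 21.9 and 15.7 CPM in +/+ cell bodies and 37.6, 22.5, 18.5 and 33.1 in +/+ axons, at 0.22 (SE 0.44, edgeR adjusted p = 0.682) on the log2 scale. In Hnrnpr-/- it was at 20.5, 35.2, 55.2 and 96.4 and 18.1, 40.0, 24.4 and 51.3 CPM, at -0.63 (SE 0.44, edgeR adjusted p = 0.233). Col13a1 (chr10:61674013-61814985, minus strand), a collagen of the neuromuscular junction, was low and uneven. It was at 0.362, 0, 0.621 and 1.17 CPM in +/+ cell bodies and 0.0341, 0, 0.0975 and 1.59 in +/+ axons, and at 0.247, 0.346, 3.10 and 1.54 and 1.05, 0, 0.45 and 0.431 in Hnrnpr-/-. Neither of its log2 fold changes passed, at -0.31 (SE 1.36, edgeR adjusted p = 0.859) and -1.43 (SE 1.35, edgeR adjusted p = 0.387). Both depended on the processing. Without replicate 4 of the +/+ axons the +/+ value was -3.48 (edgeR adjusted p = 0.0671), and the Hnrnpr-/- value lay between -3.14 by limma voom and -0.56 without replicate 3 of the Hnrnpr-/- cell bodies.

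The metalloproteinases had calls in both directions. Of 15 tested in +/+, 6 were higher in axons (Mmp2, Mmp10, Mmp11, Mmp13, Mmp14 and Mmp19) and 5 lower (Mmp9, Mmp15, Mmp16, Mmp17 and Mmp24), and in Hnrnpr-/- the counts were 6 and 4. Over all genes 30.1% were higher and 27.4% lower in +/+, so neither count of the family was far from the background. Mmp24 (chr2:155617262-155660286, plus strand), a membrane-type enzyme known from neurons, had the highest level per kb of the family in cell bodies, while Mmp2 had it in axons. It was at 349, 400.0, 333 and 353 CPM in +/+ cell bodies and 83.4, 64.9, 18.4 and 85.9 in +/+ axons, and at 405, 327, 320.1 and 323 and 213, 91.2, 12.1 and 39.1 in Hnrnpr-/-. The cell body libraries were alike and the axonal ones uneven, but they did not overlap. On the log2 scale the change was -2.51 (SE 0.64, edgeR adjusted p = 0.00388) in +/+ and -1.95 (SE 0.62, edgeR adjusted p = 0.0158) in Hnrnpr-/-, or -2.86 (edgeR adjusted p = 0.000957) without replicate 1 of the Hnrnpr-/- axons, the highest of them.

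Mmp9 (chr2:164782246-164797770, plus strand), a secreted gelatinase known as a marker of fast motoneurons, was low. Its levels were 7.33, 8.6, 8.57 and 8.26 CPM in +/+ cell bodies and 1.43, 1.30, 1.36 and 0.306 in +/+ axons, and 9.47, 11.9, 9.80 and 11.8 and 3.81, 1.65, 2.76 and 1.76 in Hnrnpr-/-. All axonal libraries were below all cell body libraries, at log2 fold changes of -2.89 (SE 0.40, edgeR adjusted p = 6.98e-05) in +/+ and -2.11 (SE 0.38, edgeR adjusted p = 0.000499) in Hnrnpr-/-. Mmp2 (chr8:93553920-93580049, plus strand), the other gelatinase, moved in the opposite direction. It was at 26.9, 7.79, 43.1 and 26.8 CPM in +/+ cell bodies and 379, 45.8, 265 and 829.8 in +/+ axons, and at 14.9, 13.5, 81.1 and 46.6 and 652, 71.5, 216 and 671 in Hnrnpr-/-. Replicate 2 was the lowest axonal library of each genotype, just above the +/+ cell bodies and within the Hnrnpr-/- ones. edgeR estimated a log2 fold change of 3.86 (SE 0.92, edgeR adjusted p = 0.00260) in +/+ and 3.37 (SE 0.90, edgeR adjusted p = 0.00584) in Hnrnpr-/-. It was 3.19 (edgeR adjusted p = 0.00734) in +/+ without axonal replicate 4 and 4.00 (edgeR adjusted p = 0.00605) in Hnrnpr-/- without cell body replicate 3. Mmp14 (chr14:54669055-54679913, plus strand), the membrane-type enzyme that activates the proform of Mmp2, was at 19.5, 16.7, 23.4 and 15.4 CPM in +/+ cell bodies and 198, 68.9, 218 and 417 in +/+ axons. The Hnrnpr-/- values were 11.7, 21.4, 34.0 and 53.6 and 277, 73.9, 204 and 328 CPM. No groups overlapped, and the log2 fold change was 3.59 (SE 0.58, edgeR adjusted p = 0.000199) in +/+ and 2.87 (SE 0.56, edgeR adjusted p = 0.000831) in Hnrnpr-/-.

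Mmp13, a collagenase, and Mmp10, a stromelysin, had large but uneven increases and were below the level set for naming, a mean of 5 CPM over the +/+ libraries of both compartments. Mmp10 was at 0.241, 0, 0.166 and 0.610 CPM in +/+ cell bodies and 27.0, 0, 1.88 and 0.734 in +/+ axons, and at 0.124, 0.0433, 0 and 0.172 and 5.75, 1.65, 1.92 and 25.1 in Hnrnpr-/-. One axonal library in each genotype carried most of it, replicate 1 in +/+ and replicate 4 in Hnrnpr-/-, while replicate 2 of the +/+ axons had 0 counts. Expressed as log2 fold change, the difference was 4.85 (SE 1.61, edgeR adjusted p = 0.0179) in +/+ and 6.60 (SE 1.81, edgeR adjusted p = 0.00690) in Hnrnpr-/-. Mmp13 was at 3.81, 0, 1.33 and 5.41 CPM in +/+ axons and 2.62, 0.745, 0.270 and 9.61 in Hnrnpr-/- axons, and at no more than 0.207 CPM in any cell body library. The gene had a log2 fold change of 4.4 (SE 1.43, edgeR adjusted p = 0.0161) in +/+ and 5.85 (SE 1.58, edgeR adjusted p = 0.00629) in Hnrnpr-/-.

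**Figure D3:**
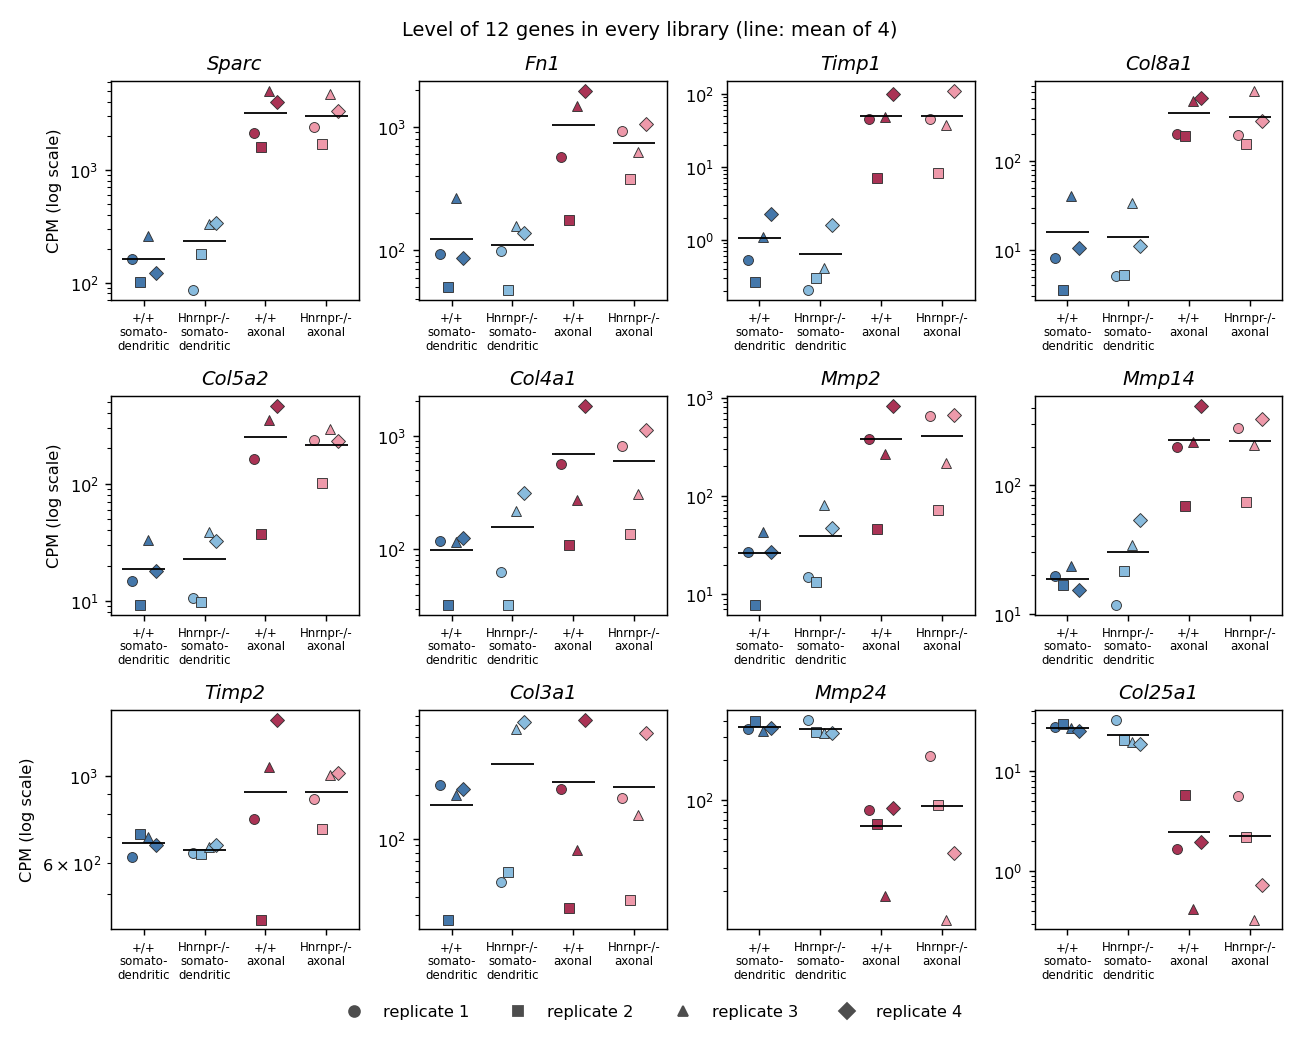
Level of 12 matrix genes in every library, in CPM on a log axis, with one panel a gene and one column of 4 points for each compartment and genotype. Sparc, Timp1, Col8a1, Mmp14 and Col5a2 show axonal points above all somatodendritic points in both genotypes, Col3a1 and Timp2 overlap in +/+, and Mmp24 and Col25a1 show axonal points below.

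Of the 4 Timps, 3 were higher in axons in both genotypes (Timp1, Timp3 and Timp4). Timp1 (chrX:20736405-20740976, plus strand), a secreted inhibitor, showed the largest increase of any matrix gene with a mean of at least 5 CPM in +/+. It was at 0.543, 0.270, 1.12 and 2.30 CPM in +/+ cell bodies and 45.4, 7.11, 47.6 and 99.9 in +/+ axons, and at 0.206, 0.303, 0.419 and 1.63 and 44.7, 8.23, 37.8 and 109.7 in Hnrnpr-/-. Even the lowest axonal library, replicate 2 of +/+, was above the highest cell body library. The fitted log2 fold change was 5.58 (SE 0.99, edgeR adjusted p = 0.000371) in +/+ and 6.29 (SE 1.04, edgeR adjusted p = 0.000268) in Hnrnpr-/-. Cell body replicate 4 was the highest of its side in each genotype, and without it the values were 6.32 (edgeR adjusted p = 0.000780) and 7.31 (edgeR adjusted p = 0.000504). Without axonal replicate 4 the Hnrnpr-/- value was 5.56 (edgeR adjusted p = 0.000814). Timp1, Timp3 and Timp4 lie within Syn1, Syn3 and Syn2, neuronal synapsin genes read from the other strand. Counting was set to use strand, but the sources do not say that the kit marks it, so reads of each pair may not have been told apart.

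Timp3 (chr10:86136276-86185369, plus strand), which binds to the matrix itself, was at 103, 85.6, 126 and 80.8 CPM in +/+ cell bodies and 174, 114, 295 and 469.5 in +/+ axons, and at 86.6, 110.4, 128 and 149.8 and 171, 151, 467 and 283 in Hnrnpr-/-. The +/+ groups overlapped at axonal replicate 2, and the Hnrnpr-/- groups nearly touched. The log2 fold change was 1.41 (SE 0.41, edgeR adjusted p = 0.00883) in +/+ and 1.18 (SE 0.41, edgeR adjusted p = 0.0240) in Hnrnpr-/-, where it was 0.81 (edgeR adjusted p = 0.0966) without axonal replicate 3 and 1.10 (edgeR adjusted p = 0.0616) without cell body replicate 1. Timp4 (chr6:115221405-115229166, minus strand) was at 52.2, 40.0, 42.8 and 36.8 CPM in +/+ cell bodies and 117, 118, 51.3 and 66.8 in +/+ axons, and at 40.1, 56.3, 45.1 and 43.2 and 122, 117, 23.6 and 117 in Hnrnpr-/-. Replicate 3 was the lowest axonal library of both genotypes, unlike for most genes that rose. This gave a log2 fold change of 1.04 (SE 0.39, edgeR adjusted p = 0.0343) in +/+ and 1.04 (SE 0.39, edgeR adjusted p = 0.0364) in Hnrnpr-/-. With the replicate block within genotype neither passed, at 0.96 (edgeR adjusted p = 0.0549) and 0.83 (edgeR adjusted p = 0.103). The +/+ call was also lost without replicate 1 or 2 of the +/+ axons or replicate 2, 3 or 4 of the +/+ cell bodies, and the Hnrnpr-/- call without replicate 1, 2 or 4 of the Hnrnpr-/- axons or 1, 3 or 4 of the Hnrnpr-/- cell bodies, at adjusted p-values of up to 0.0954 and 0.0888. Timp2 (chr11:118191887-118246237, minus strand), which also takes part in the activation of Mmp2 by Mmp14, was high on both sides. It was at 621, 709, 697 and 667 CPM in +/+ cell bodies and 777, 431, 1049 and 1382 in +/+ axons, and at 636, 632, 660.3 and 667 and 873, 732, 1002 and 1018 in Hnrnpr-/-. Its log2 fold change was 0.43 (SE 0.25, edgeR adjusted p = 0.148) in +/+ and 0.48 (SE 0.25, edgeR adjusted p = 0.115) in Hnrnpr-/-, and without replicate 2 of the +/+ axons, the only axonal library below all cell bodies, it was 0.66 (edgeR adjusted p = 0.00541) and 0.48 (edgeR adjusted p = 0.0214). The Hnrnpr-/- call was also made without replicate 4 of the +/+ axons, at 0.52 (edgeR adjusted p = 0.0491). It was made as well by limma voom, without TMM factors and in a fit of the compared groups alone. Every Hnrnpr-/- axonal library was above every Hnrnpr-/- cell body library.

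The Adamts proteases had counts of calls near those of all genes. Of 18 tested in +/+, 5 were higher in axons (Adamts1, Adamts7, Adamts8, Adamts12 and Adamts14) and 6 lower (Adamts2, Adamts3, Adamts15, Adamts17, Adamts18 and Adamts19), where 30.1% and 27.4% of all genes were. In Hnrnpr-/- there were 3 and 6. The procollagen N-proteinases Adamts2, Adamts3 and Adamts14, which trim the ends of fibrillar collagens, were divided. Adamts14 (chr10:61032886-61109447, minus strand) was at 0.422, 0.315, 2.15 and 1.31 CPM in +/+ cell bodies and 10.2, 2.81, 26.8 and 31.3 in +/+ axons, and at 0.823, 1.69, 1.01 and 2.83 and 7.41, 7.48, 13.4 and 23.3 in Hnrnpr-/-, without overlap. The gene had a log2 fold change of 4.08 (SE 0.79, edgeR adjusted p = 0.000653) in +/+ and 3.02 (SE 0.75, edgeR adjusted p = 0.00378) in Hnrnpr-/-, and 4.75 (edgeR adjusted p = 0.000943) in +/+ without cell body replicate 3. Adamts3 had a mean of 21.9 ± 3.47 CPM in +/+ cell bodies and 5.91 ± 1.03 in +/+ axons, a log2 fold change of -1.89 (SE 0.35, edgeR adjusted p = 0.000492). Adamts2 had 10.1 ± 0.675 and 3.88 ± 2.62 CPM, a log2 fold change of -1.38 (SE 0.48, edgeR adjusted p = 0.0225).

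Adamts1 (chr16:85590715-85600001, minus strand), which cleaves aggrecan and versican, had the highest level per kb of the family in axons. It was at 22.9, 14.7, 42.4 and 11.4 CPM in +/+ cell bodies and 142, 103, 257 and 219 in +/+ axons, and at 33.7, 18.0, 42.8 and 19.6 and 123, 148, 284 and 143 in Hnrnpr-/-. The compartments did not overlap, and the log2 fold change was 2.98 (SE 0.46, edgeR adjusted p = 0.000139) in +/+ and 2.61 (SE 0.4, edgeR adjusted p = 0.000361) in Hnrnpr-/-. Adamts8 (chr9:30853858-30875134, plus strand), a related protease, was at 2.29, 2.12, 8.57 and 2.77 CPM in +/+ cell bodies and 9.33, 20.0, 83.2 and 33.8 in +/+ axons, and at 3.17, 5.24, 5.15 and 8.02 and 10.2, 34.0, 82.2 and 28.4 in Hnrnpr-/-. Replicate 3 was the highest axonal library in both genotypes and also the highest +/+ cell body library. On the log2 scale the change was 3.22 (SE 0.73, edgeR adjusted p = 0.00194) in +/+ and 2.84 (SE 0.72, edgeR adjusted p = 0.00420) in Hnrnpr-/-. In +/+ it was 3.97 (edgeR adjusted p = 0.00134) without cell body replicate 3 and 2.47 (edgeR adjusted p = 0.00714) without axonal replicate 3, and in Hnrnpr-/- 2.21 (edgeR adjusted p = 0.0157) without axonal replicate 3. Adamts10 (chr17:33742620-33772756, plus strand), which acts on fibrillin microfibrils, was even on both sides, with 33.6, 30.3, 27.8 and 28.0 and 24.3, 13.8, 22.4 and 31.8 CPM in +/+ and 30.8, 21, 33.8 and 29.1 and 26.2, 19.8, 19.4 and 28.9 in Hnrnpr-/-. Its log2 fold change was -0.38 (SE 0.23, edgeR adjusted p = 0.172) in +/+ and -0.28 (SE 0.23, edgeR adjusted p = 0.315) in Hnrnpr-/-.

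Among the lower ones, Adamts17 (chr7:66487387-66802373, plus strand), a protease tied to fibrillin, was at 21.9, 29.7, 18.3 and 26.8 CPM in +/+ cell bodies and 3.51, 0.622, 2.60 and 4.59 in +/+ axons, and at 24.0, 16.2, 15.9 and 21.9 and 6.28, 2.80, 1.08 and 1.86 in Hnrnpr-/-. No axonal library came near a cell body library. edgeR estimated a log2 fold change of -3.09 (SE 0.55, edgeR adjusted p = 0.000381) in +/+ and -2.7 (SE 0.54, edgeR adjusted p = 0.000993) in Hnrnpr-/-, or -3.35 (edgeR adjusted p = 0.000190) without axonal replicate 1. Adamts15 (chr9:30810451-30833748, minus strand), which cleaves the chondroitin sulfate proteoglycans of the brain matrix, was at 33.9, 35.7, 24.8 and 30.2 CPM in +/+ cell bodies and 5.07, 3.70, 1.40 and 13.2 in +/+ axons. In Hnrnpr-/- it was at 34.5, 18.8, 19.9 and 23.6 and 8.72, 6.15, 1.92 and 1.89 CPM, again without overlap. Expressed as log2 fold change, the difference was -2.42 (SE 0.59, edgeR adjusted p = 0.00306) in +/+ and -2.37 (SE 0.59, edgeR adjusted p = 0.00385) in Hnrnpr-/-, and without replicate 4 of the +/+ axons the former was -3.15 (edgeR adjusted p = 0.000579). Adamts18 (chr8:114423755-114575975, minus strand) was at 6.4, 6.89, 4.93 and 7.93 CPM in +/+ cell bodies and 0.988, 0.487, 0.942 and 0.184 in +/+ axons, and at 7.78, 6.19, 2.89 and 4.50 and 1.10, 1.68, 2.82 and 0.332 in Hnrnpr-/-. In Hnrnpr-/- axonal replicate 3 almost reached the lowest cell body library. The gene had a log2 fold change of -3.33 (SE 0.60, edgeR adjusted p = 0.000391) in +/+ and -1.84 (SE 0.56, edgeR adjusted p = 0.0118) in Hnrnpr-/-.

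Lysyl oxidases were higher in axons for 4 of 5 in +/+ (Lox, Loxl1, Loxl2 and Loxl3) and for 3 in Hnrnpr-/- (without Lox), and none was lower. Loxl3 (chr6:83011186-83029547, plus strand) was the steadiest. It was at 14.0, 9.54, 14.2 and 12 CPM in +/+ cell bodies and 48.2, 21.8, 53.3 and 61.8 in +/+ axons, and at 13.6, 11.9, 19.0 and 14.9 and 55.3, 37.5, 65.2 and 67.6 in Hnrnpr-/-. There was no overlap, and the log2 fold change was 1.89 (SE 0.29, edgeR adjusted p = 0.000130) in +/+ and 1.92 (SE 0.29, edgeR adjusted p = 0.000147) in Hnrnpr-/-. Loxl2 (chr14:69846085-69933283, plus strand), which cross-links collagen IV, was at 14.2, 2.7, 27.0 and 13.6 CPM in +/+ cell bodies and 91.9, 19.6, 113 and 238 in +/+ axons, and at 14.9, 9.09, 28.9 and 18.4 and 123, 25.8, 79.0 and 176 in Hnrnpr-/-. Only axonal replicate 2 fell within the cell body range, in both genotypes. The fitted log2 fold change was 3.0 (SE 0.76, edgeR adjusted p = 0.00392) in +/+ and 2.5 (SE 0.75, edgeR adjusted p = 0.0111) in Hnrnpr-/-. Lox, the founding enzyme, on chromosome 18, was the least even. It was at 3.95, 0.675, 21.5 and 4.98 CPM in +/+ cell bodies and 21.2, 2.49, 59.9 and 183 in +/+ axons, and at 3.21, 2.60, 30.5 and 12 and 24.8, 7.21, 59.99 and 101 in Hnrnpr-/-, with overlap. The log2 fold change was 3.10 (SE 1.24, edgeR adjusted p = 0.0432) in +/+ and 2.00 (SE 1.18, edgeR adjusted p = 0.166) in Hnrnpr-/-, where the replicate block within genotype gave 2.12 (edgeR adjusted p = 0.0134). In +/+ it was 1.89 (edgeR adjusted p = 0.180) without axonal replicate 4 and 4.41 (edgeR adjusted p = 0.0180) without cell body replicate 3, and the +/+ call was also lost without axonal replicate 3, without cell body replicate 1, 2 or 4 and without replicate 4 of the Hnrnpr-/- cell bodies.

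Of fibronectin, Sparc and the fibulins, 4 of 6 were higher in axons in both genotypes (Sparc, Fn1, Fbln2 and Fbln5), and none was lower. Sparc (chr11:55284985-55310906, minus strand), the most abundant matrix transcript of the axons, was at 162, 101, 260.1 and 122 CPM in +/+ cell bodies and 2112, 1604, 4994 and 3961 in +/+ axons. The Hnrnpr-/- values were 85.4, 177, 334 and 340.3 and 2382, 1692, 4672 and 3343 CPM. The groups were far apart in both genotypes, and replicate 3 was the highest on the axonal side in both genotypes. This gave a log2 fold change of 4.30 (SE 0.53, edgeR adjusted p = 3.87e-05) in +/+ and 3.69 (SE 0.52, edgeR adjusted p = 0.000103) in Hnrnpr-/-. Fn1 (chr1:71624632-71692439, minus strand), fibronectin, a ligand of axonal integrins, was at 93.4, 50.3, 263 and 86.0 CPM in +/+ cell bodies and 564, 177, 1474 and 1949 in +/+ axons. In Hnrnpr-/- it was at 99.3, 47.3, 157 and 139 and 931, 375, 621 and 1049 CPM. Cell body replicate 3 of +/+ was above axonal replicate 2, and without it the +/+ log2 fold change was 3.80 (edgeR adjusted p = 0.00108). With all libraries it was 3.08 (SE 0.69, edgeR adjusted p = 0.00172) in +/+ and 2.75 (SE 0.68, edgeR adjusted p = 0.00362) in Hnrnpr-/-.

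Fbln5 (chr12:101712824-101785541, minus strand), needed for elastic fibre assembly, was at 5.49, 4.10, 14.1 and 5.44 CPM in +/+ cell bodies and 85.7, 19.5, 223 and 226 in +/+ axons, and at 4.86, 6.75, 30.5 and 16 and 64.6, 44, 241 and 105 in Hnrnpr-/-. The groups did not overlap, and replicate 3 was the highest cell body library in both genotypes. On the log2 scale the change was 4.25 (SE 0.83, edgeR adjusted p = 0.000732) in +/+ and 2.97 (SE 0.79, edgeR adjusted p = 0.00557) in Hnrnpr-/-, where it was 3.61 (edgeR adjusted p = 0.00442) without cell body replicate 3 and 2.34 (edgeR adjusted p = 0.0197) without axonal replicate 3. Fbln2 (chr6:91189442-91249522, plus strand), a fibulin of basement membranes, was at 24.6, 17.7, 36.6 and 20.7 CPM in +/+ cell bodies and 66.2, 25.9, 115 and 301 in +/+ axons, and at 33.7, 11.7, 26.7 and 46.7 and 263, 39.6, 213 and 313 in Hnrnpr-/-. Axonal replicate 2 fell within the cell body range in both genotypes. edgeR estimated a log2 fold change of 2.35 (SE 0.69, edgeR adjusted p = 0.00938) in +/+ and 2.80 (SE 0.70, edgeR adjusted p = 0.00398) in Hnrnpr-/-, and 1.52 (edgeR adjusted p = 0.0460) in +/+ without axonal replicate 4.

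Genes of the same pathway outside the group were counted in the same way. Of 21 genes that fold, modify, export and trim procollagen, 16 were higher and 1 was lower in +/+ axons, where 30.1% and 27.4% of all genes were, with 15 and 1 in Hnrnpr-/- and medians of 1.67 and 1.35. Serpinh1, the collagen chaperone Hsp47, was at 71.6 ± 33.8 CPM in +/+ cell bodies and 771 ± 461 in +/+ axons (SD, n = 4), a log2 fold change of 3.43 (SE 0.58, edgeR adjusted p = 0.000286). Fkbp10, another collagen chaperone, was at 12.2 ± 7.64 and 179.9 ± 125 CPM, at 3.88 (SE 0.74, edgeR adjusted p = 0.000601). The exception was Mia3, which exports procollagen from the endoplasmic reticulum, at 198 ± 24.6 and 83.2 ± 17.5 CPM and -1.25 (SE 0.19, edgeR adjusted p = 0.000150).

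Of 24 other matrix genes, 12 were higher and 2 lower in +/+ axons, against the same shares over all genes, and 11 and 2 in Hnrnpr-/-. Bgn, the proteoglycan biglycan, was at 21.8 ± 14.2 CPM in +/+ cell bodies and 716 ± 706 in axons, at 5.04 (SE 0.98, edgeR adjusted p = 0.000702). Mgp, the matrix Gla protein of vessel walls and cartilage, went from 1.02 ± 1.36 to 185 ± 172 CPM, at 7.52 (SE 1.49, edgeR adjusted p = 0.000763). The lower ones in +/+ were Acan, aggrecan, and Agrn, the agrin by which motoneurons cluster acetylcholine receptors, at 311 ± 65.5 and 129 ± 16.1 CPM and -1.27 (SE 0.21, edgeR adjusted p = 0.000213). Of 14 genes of protease control, 9 were higher and none lower in both genotypes. Plat, the tissue plasminogen activator, went from 154 ± 25.2 to 459.8 ± 69.3 CPM, at 1.58 (SE 0.21, edgeR adjusted p = 5.42e-05).

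Markers of neurons and of other cell types were compared between the same compartments, where over all genes 30.1% were higher and 27.4% lower in +/+ axons. Of 8 tested markers of motoneurons and neurons, 6 were lower and none higher in axons, and their summed level was 3230.3 to 5010.1 and 2944 to 4753 CPM in +/+ and Hnrnpr-/- cell bodies and 284 to 1512 and 189 to 2498 in axons. Of 10 pericyte and smooth muscle markers, 6 were higher (Acta2, Tagln, Des, Cspg4, Pdgfrb and Myh11) and 1 lower (Notch3) in +/+. Their sum was 97.3 to 480.2 and 121 to 312 CPM in cell bodies and 1233 to 10988 and 2160.3 to 9699.9 in axons. It was highest in axonal replicate 3 and lowest in axonal replicate 2 of each genotype. Most of it was Acta2, smooth muscle actin, at 113 ± 161 CPM in +/+ cell bodies and 4058 ± 3982 in +/+ axons.

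Of 9 tested fibroblast and meningeal markers, 4 were higher and 1 lower in +/+ axons, but their sum was 81.8 to 182 CPM in +/+ cell bodies and 60.8 to 237 in axons, and 79.8 to 265 and 52.9 to 294 in Hnrnpr-/-, so that the compartments overlapped. Of 7 endothelial markers, Kdr and Flt1 were higher and Tek, Tie1 and Cldn5 lower, which is near the shares over all genes, and Tie1, Cdh5 and Cldn5 were at 0 CPM in all +/+ axonal libraries. Their sum was 9.32 to 19.0 and 54.5 to 263 CPM in +/+ and 12.2 to 45.3 and 52.2 to 143 in Hnrnpr-/- cell bodies and axons. Astrocyte and radial glia markers were higher for 5 of 10 and lower for none, with a sum of 1469.7 to 2278 CPM in +/+ cell bodies and 2683 to 5917 in axons, and 1705 to 2802 and 2536 to 4799 in Hnrnpr-/-. Oligodendroglia and Schwann cell markers were higher for 1 of 9 (Olig1) and microglia markers for 1 of 8 (Tmem119), both in both genotypes. The former summed to 208 to 889 and 266 to 1268 CPM in +/+ cell bodies and axons and to 278 to 1229 and 309.8 to 1827 in Hnrnpr-/-. The latter summed to 10.6 to 45.5 and 14.6 to 128 CPM and to 10.3 to 129.9 and 19.8 to 398. No listed marker was at 0 in all 8 axonal libraries. Several of these markers, such as Acta2 and Pdgfrb, are expressed by more than one kind of cell that makes matrix. The part of these cell types in the levels of the matrix genes was not tested.

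**Figure D4:**
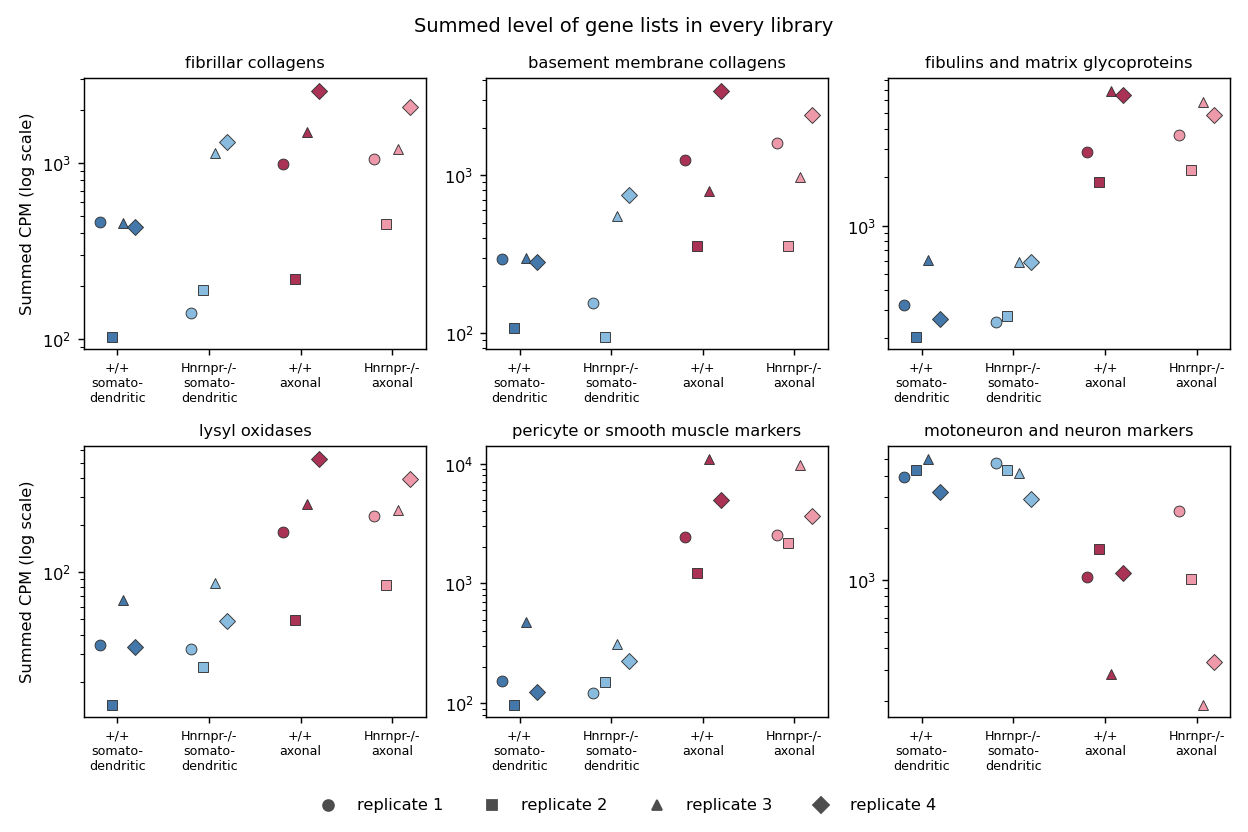
Summed level of 6 gene lists in every library, in CPM on a log axis, with one panel a list and one column of 4 points for each compartment and genotype. Pericyte and smooth muscle markers are at 97.3 to 480.2 CPM in cell bodies and 1233 to 10988 in axons, neuron markers show the reverse order, and fibrillar collagens are uneven among the Hnrnpr-/- somatodendritic libraries.

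The second comparison asked whether loss of hnRNP R changed matrix genes on either side. On the axonal side none of the 91 genes passed an adjusted p under 0.05 (0.0100% of all genes did), by edgeR or by DESeq2, and 3 passed an unadjusted p under 0.05 (3.30%, against 3.88% of all genes; 4 by DESeq2). On the somatodendritic side again none passed (0.00501% of all genes), and 1 passed the unadjusted p (1.10%, against 0.601%; 1 by DESeq2 and 10 by limma voom with sample weights). The difference of the genotype effect between compartments passed for none by edgeR and DESeq2 (0% of all genes by edgeR) and for 2 unadjusted (2.20%, against 1.33%). The precision was limited, since the median SE of the genotype effect was 0.64 on the log2 scale in axons (0.18 to 1.79) and 0.66 in cell bodies (0.18 to 1.86). A gene with the median SE would thus need a log2 fold change well above 1 to pass even unadjusted.

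Mmp9 had the smallest unadjusted p on the axonal side. Hnrnpr-/- axons held 3.81, 1.65, 2.76 and 1.76 CPM against 1.43, 1.30, 1.36 and 0.306 in +/+, so that every Hnrnpr-/- library was above every +/+ library. The log2 fold change of Hnrnpr-/- relative to +/+ was 1.18 (SE 0.38, unadjusted p = 0.00722, adjusted p = 1.00 by edgeR) in axons and 0.39 (SE 0.37, unadjusted p = 0.299, adjusted p = 1.00 by edgeR) in cell bodies. Col2a1 was at 62.0, 67.7, 49.3 and 25.2 CPM in Hnrnpr-/- axons and at 45.4, 25.1, 418 and 142 in +/+, and these overlapped. Its log2 fold change was -1.63 (SE 0.67, unadjusted p = 0.0286, adjusted p = 1.00 by edgeR) in axons, and the difference between compartments was -2.24 (SE 0.95, unadjusted p = 0.0317, adjusted p = 1.00 by edgeR). Without replicate 3 of the +/+ axons, the library at 418 CPM, these were -0.46 and -1.09. For Col6a5 the comparison in axons was 13 counts, all in replicates 3 and 4, against 0 in +/+, and no fold is given. Adamts18 came next for the difference between compartments, at 1.48 (SE 0.78, unadjusted p = 0.0755, adjusted p = 1.00 by edgeR).

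On the somatodendritic side Col23a1, a transmembrane collagen, was the one gene with an unadjusted p under 0.05. Hnrnpr-/- cell bodies held 20.5, 35.2, 55.2 and 96.4 CPM against 36.6, 21.3, 21.9 and 15.7 in +/+, with overlap, and the log2 fold change was 1.12 (SE 0.44, unadjusted p = 0.0229, adjusted p = 1.00 by edgeR). Next were Col1a2 at 1.40 (SE 0.93, unadjusted p = 0.153, adjusted p = 1.00 by edgeR) and Col16a1 at 0.81 (SE 0.55, unadjusted p = 0.161, adjusted p = 1.00 by edgeR). Over the alternatives Col23a1 lay between 0.63 and 1.41, Col1a2 between 0.92 and 1.79 and Col16a1 between 0.28 and 1.06. Of the 91 genes, 63 had a positive and 28 a negative fold change in cell bodies, with a median of 0.27 against 0.00 over all genes. In axons 50 were positive and 41 negative, with a median of 0.03 against 0.02. This axonal median had no stable sign, at 0.35 without replicate 4 and -0.21 without replicate 2 of the +/+ axons, 0.16 without replicate 2 and -0.12 without replicate 4 of the Hnrnpr-/- axons and -0.18 by limma voom. The somatodendritic shift moved with single libraries too. Fibrillar collagens summed to 141 and 190.5 CPM in Hnrnpr-/- replicates 1 and 2 and to 1151 and 1326 CPM in replicates 3 and 4, against 103 to 464 in +/+. Basement membrane collagens summed to 155 and 94.7 against 552 and 747 CPM in the same libraries. Without replicate 3 of the Hnrnpr-/- cell bodies the median over the matrix genes was 0.09, and without replicate 4 it was 0.10. Without replicate 2 of the +/+ cell bodies it was 0.15, and without replicate 3 of them 0.41.

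**Figure D5:**
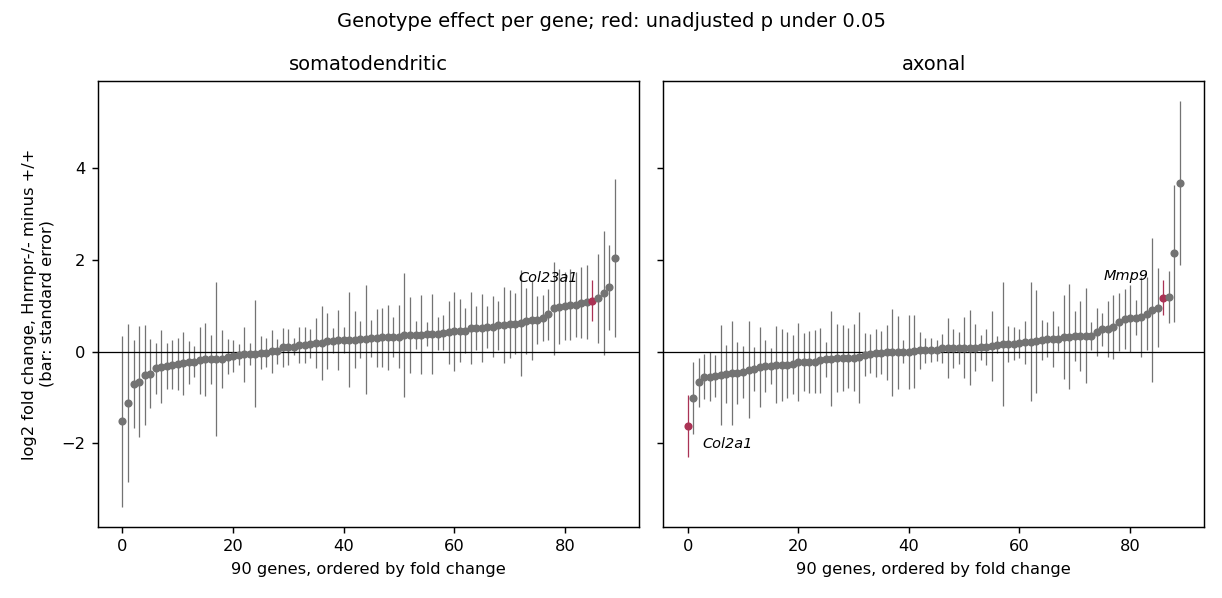
Log2 fold change of Hnrnpr-/- relative to +/+ (y axis) with its SE for 90 tested matrix genes, ordered by fold change (x axis). The left panel shows the somatodendritic and the right panel the axonal side, and red marks an unadjusted p under 0.05. Col6a5 is left out. No point passes the adjusted threshold, and 63 of all 91 tested genes had a fold change above 0 on the somatodendritic side.

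Of the 10 genes too low to be tested, 8 were metalloproteinases (Mmp1a, Mmp1b, Mmp3, Mmp7, Mmp8, Mmp20, Mmp21 and Mmp27) and the others Adamts13 and Col6a6. Mmp7 and Mmp20 had no count in any library. A count of 0 allows up to 3 counts in a library, which covers counting error only. Mmp3, another stromelysin of the chromosome 9 cluster, had 4 counts in +/+ cell bodies and 58 in +/+ axons, 47 of them in 1 library, and 0 and 29 in Hnrnpr-/-. Mmp8, the neutrophil collagenase, had 3 and 34 counts in +/+ and 2 and 81 in Hnrnpr-/-, of which 75 were in 1 axonal library. Col6a6 leaned the other way, with 23 and 3 counts in +/+ and 24 and 14 in Hnrnpr-/-.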

How the data were processed

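Per the labels and the study's methods, RNA was amplified with SMART-Seq v4 and tagmented with Nextera XT, single-end reads were aligned to RefSeq GRCm39 with STAR 2.7.2b and exon reads were counted with featureCounts 1.6.4, set to reverse strand with shared reads split as fractions. The authors deposited these estimated counts in 1 table, and their own tests used DESeq2 1.24.0. They were rounded to whole counts here and CPM used TMM factors. Each library was matched to its label, and none was dropped. One model with 4 group means was fitted to all 16 libraries with edgeR 4.0.16 in R 4.3.3 (filterByExpr, glmQLFit, glmQLFTest) and checked on simulated data. Alternatives used DESeq2 1.42.0, limma 3.58.1 voom, other scalings and filters, a replicate block and leaving out each library. Genes named with every library's value were the 3 most abundant tested of each role, the 5 largest increases and decreases in +/+ axons among genes averaging 5 CPM or more in +/+, and the 3 smallest p-values of each genotype comparison. Any other gene named was chosen after its values were seen. Replicate numbers paired somatodendritic and axonal libraries within a genotype: deviations from the group means correlated over all genes at 0.105 to 0.241 in +/+ and 0.175 to 0.508 in Hnrnpr-/-, each number best with itself. The genes and lists were chosen with earlier results of these data known. Figures were drawn with matplotlib 3.10.9. Of the 101 genes, 45 overlap a gene on the other strand and 14 one on the same strand, and reads of such genes, antisense genes included, may be shared.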

Additional observations from a re-analysis of the deposited data

Results flagged for a closer look

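Within groups of 4 libraries, 14 of 164 gene levels tested had 1 library farther from the others than Dixon's 95% limit, where chance flags about 1 in 20. Replicate 2 of the +/+ somatodendritic group was the low library for the collagens Col3a1, at 27.8 CPM against 198 to 232, and Col4a1, at 32.7 against 116 to 126. Replicate 3 of that group was the high one for Col8a2, at 23.6 CPM against 1.88 to 5.55, Adamts8, at 8.57 against 2.12 to 2.77, and Fbln5, at 14.1 against 4.10 to 5.49. Replicate 1 of it was high for Col16a1, at 15.8 CPM against 10.9 to 11.7. In the Hnrnpr-/- somatodendritic group replicate 1 was high for Col25a1, at 32.3 CPM against 18.9 to 20.5, and for Mmp24, at 405 against 320.1 to 327, both of which were lower in axons. Replicate 4 of it was high for Timp1, at 1.63 CPM against 0.206 to 0.419. In +/+ axons replicate 4 was high for Col13a1, at 1.59 CPM against 0 to 0.0975, and low for Mmp9, at 0.306 against 1.30 to 1.43. In Hnrnpr-/- axons replicate 3 was low for Timp4, at 23.6 CPM against 117 to 122, and high for Adamts1, at 284 against 123 to 148. Replicate 4 of it was high for Col16a1, at 80.0 CPM against 20.9 to 30.7.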

How the results depend on the processing

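The number of matrix genes higher in +/+ axons lay between 36 and 46 over all alternatives, the number lower between 13 and 16, and in Hnrnpr-/- the numbers lay between 27 and 37 and between 11 and 14. None passed for genotype on either side, or for the difference between compartments, under any of them. With the replicate number as a block within genotype, 42 genes were higher and 16 lower in +/+ and 36 and 13 in Hnrnpr-/-, none differed between them, and the calls this changed among named genes stand beside each gene. Over the named genes 2376 of 2473 values under an alternative kept their call, 42 gained and 54 lost it, and no called value changed sign. Of those that kept it, 4 of Col13a1 in +/+, which did not pass, changed sign, within a range of -3.48 to 0.42. The remaining one was the fold change of Col3a1 in +/+, which did not pass and was -0.54 without replicate 4 of the +/+ axons. Without TMM factors the median over all genes in +/+ was 0.22 and over matrix genes 1.46. Genes below about 0.1 CPM were limited by depth, and the levels of Mmp10, Mmp13 and Col10a1 by the spread between axonal libraries. Leaving out a library of one side left 3 on it, and all other groups kept 4.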

Other observations

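Col10a1, a collagen of growth plate cartilage, was at 25.2, 0.514, 0.552 and 11.2 CPM in the +/+ axonal libraries 1 to 4 and at 14.1, 1.74, 0.660 and 9.85 in the Hnrnpr-/- ones, against no more than 1.78 CPM in any cell body library. It was chosen after its values were seen. Mmp13 and Mmp10 had their highest levels in replicate 1 or 4 of the axonal groups, whereas the pericyte and smooth muscle markers were highest in replicate 3. Loxl1, a lysyl oxidase of elastic fibres, was at 18.3, 5.73, 42.6 and 38.5 CPM in +/+ axons and 22.5, 10.8, 42.9 and 34.5 in Hnrnpr-/- axons, and at 1.69, 0.585, 2.90 and 1.55 and 0.535, 1.04, 4.19 and 2.7 in cell bodies, with axonal replicates 3 and 4 the highest. Of the collagen VI chains, Col6a1 was 2.88 and 2.63 times Col6a2 per kb in +/+ and Hnrnpr-/- cell bodies and 5.10 and 5.27 times in axons. Over single libraries the ratio was 2.25 to 3.45 and 2.39 to 5.22 in cell bodies and 1.65 to 5.83 and 3.77 to 11.2 in axons, so the ranges overlapped, and the difference was not tested.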
